A study of Mus musculus with 47 samples.

Results

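The Lgi genes encode 4 secreted glycoproteins built of leucine-rich and EPTP repeats, and Adam11, Adam22 and Adam23 encode the 3 membrane proteins that serve as their receptors in the nervous system. The 7 genes were taken by name, 7 of the 48795 genes in the deposited tables, and each had 1 row. They were described across the cerebral cortex of 47 mice aged 6 months. The set was chosen by a measured value, the Lgi4 count, which was lower in mice with the Q140 allele in these same libraries, so every comparison of mice with and without Q140 is given here as a description and no test is read from it. The comparisons of Ccdc82 genotypes and of males with females, and the variation from mouse to mouse, played no part in the choice.

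The Q140 allele models Huntington's disease through an expanded CAG repeat knocked into Htt, and its carriers are heterozygous per the titles. The groups were Q140 (4 males and 4 females), Q140 x Ccdc82+/- (4 males and 4 females), Q140 x Ccdc82-/- (4 males and 3 females), Ccdc82-/- (4 males and 4 females), Ccdc82+/- (4 males and 4 females) and wild type, written WT (4 males and 4 females). All were labelled C57BL, and the labels do not say how the Ccdc82 allele was made. RNA was extracted with a Qiagen RNeasy kit and sequenced with a stranded Illumina TruSeq kit. The titles number the libraries as replicates within genotype and sex, and each library was taken as a separate mouse.

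The library totals were between 43554594 and 61370843 counts. Ccdc82 itself averaged 2.99 ± 0.242 FPKM in Q140 x Ccdc82-/- mice (SD, n = 7) and 2.87 ± 0.341 FPKM in Ccdc82-/- mice (SD, n = 8), 6.17 ± 0.488 FPKM in Q140 x Ccdc82+/- mice and 5.90 ± 0.540 FPKM in Ccdc82+/- mice (SD, n = 8 each), and 8.48 ± 0.514 FPKM in Q140 mice and 8.76 ± 0.836 FPKM in WT mice (SD, n = 8 each). FPKM is the count scaled to the length of a gene's exons and to the total of its library. The cortical excitatory neuron gene Slc17a7 averaged 224.6 FPKM over the 47 libraries, and the interneuron gene Gad1 averaged 57.5 FPKM. Of 7 Schwann cell genes 5 passed the filter on low counts, with Drp2 at 16.4 and Egr2 at 7.06 FPKM, while Pmp2 was at 0 in 45 of 47 libraries.

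LGI1 is released by neurons and bridges ADAM22 and ADAM23 across the synapse, and its loss in mice and humans causes epilepsy. ADAM22 binds the postsynaptic scaffold protein PSD-95, the product of Dlg4, and through it AMPA receptors, while ADAM23 and ADAM11 are tied to presynaptic and axonal Kv1 potassium channels. LGI2 is mutated in a remitting epilepsy of dogs, LGI3 is made by oligodendrocytes, and LGI4 acts through ADAM22 in the myelination of peripheral nerve by Schwann cells. These 3 receptors lack the metalloprotease activity that some other ADAM proteins have.

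Sequences upstream of 4 of the genes were found in RefSeq on GRCm38.p6, each 300 bases from 250 before to 50 after the gene's start in RefSeq, which for Lgi1 and Lgi2 is not the start that GENCODE gives, and written 5′ to 3′ on the gene's own strand. No such sequence was available for Lgi3, Lgi4 and Adam11. Lgi2 and Adam23 moved together from mouse to mouse, as described below. Lgi1 and Adam22 were less correlated with them and with each other, with the highest r at 0.360 for Adam22 and Adam23. Capitals mark the GC box, GGGCGG or its reverse complement CCGCCC, which was the one motif of the 3 searched that occurred more than once in any of the 4. The Lgi2 window is chr5:52566257-52566556 on the minus strand, the Adam23 window chr1:63445641-63445940 on the plus strand, the Lgi1 window chr19:38264437-38264736 on the plus strand and the Adam22 window chr5:8368111-8368410 on the minus strand.
Lgi2: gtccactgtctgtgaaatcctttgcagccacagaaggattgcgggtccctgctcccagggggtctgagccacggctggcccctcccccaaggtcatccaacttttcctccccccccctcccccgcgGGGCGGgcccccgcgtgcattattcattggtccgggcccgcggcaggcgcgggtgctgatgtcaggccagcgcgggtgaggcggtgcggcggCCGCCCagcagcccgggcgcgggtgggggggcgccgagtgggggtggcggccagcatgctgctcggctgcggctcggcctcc
Adam23: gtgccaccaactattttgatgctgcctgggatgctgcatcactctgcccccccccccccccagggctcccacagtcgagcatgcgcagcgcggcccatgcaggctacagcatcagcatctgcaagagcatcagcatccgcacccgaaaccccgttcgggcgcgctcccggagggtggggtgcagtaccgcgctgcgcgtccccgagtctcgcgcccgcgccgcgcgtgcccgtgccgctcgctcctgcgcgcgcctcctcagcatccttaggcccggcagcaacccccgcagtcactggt
Lgi1: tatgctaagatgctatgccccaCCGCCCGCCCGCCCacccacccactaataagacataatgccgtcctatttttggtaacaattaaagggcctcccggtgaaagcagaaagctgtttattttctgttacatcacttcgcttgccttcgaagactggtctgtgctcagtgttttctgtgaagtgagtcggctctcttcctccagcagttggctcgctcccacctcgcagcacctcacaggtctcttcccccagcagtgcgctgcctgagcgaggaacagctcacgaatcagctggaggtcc
Adam22: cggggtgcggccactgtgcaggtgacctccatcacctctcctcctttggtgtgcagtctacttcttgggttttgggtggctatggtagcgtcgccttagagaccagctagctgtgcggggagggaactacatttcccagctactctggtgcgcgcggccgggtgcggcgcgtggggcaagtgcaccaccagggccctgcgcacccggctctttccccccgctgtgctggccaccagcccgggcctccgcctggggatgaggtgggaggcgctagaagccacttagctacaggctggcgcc

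The Lgi2 window was 73.3% G and C and held 27 CpG pairs, and the Adam23 window was 70.0% G and C and held 31. The Adam22 window was 66.3% G and C with 19 CpG pairs, and the Lgi1 window 54.0% with 13, against medians of 53.0% and 7 over 32544 RefSeq windows of this length. The GC box was found 3 times in the Lgi1 window, where the matches overlap, and 2 times in the Lgi2 window, and not in the windows of Adam22 and Adam23; 35.9% of all windows hold it on either strand. A CCAAT box (CCAAT or ATTGG) occurred once, in the Lgi2 window, against 37.4% of all windows, and no window of the 4 held TATAAA or TTTATA, against 13.6%. Lgi2 and Adam23 both had a high G and C content, as Adam22 had, and no motif of the 3 was matched in both.

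In GENCODE M21 on GRCm38, Lgi1 lies at chr19:38264536-38312214, Lgi2 at chr5:52533517-52566462, Lgi3 at chr14:70530685-70538324, Lgi4 at chr7:31059342-31070935, Adam11 at chr11:102761439-102780262, Adam22 at chr5:8072352-8368160 and Adam23 at chr1:63445891-63596276. Lgi2 and Adam22 share their chromosome with Htt, at 17.6 and 26.4 Mb from it. The opposite-strand gene Fxyd3 spans 2059 exon bases of Lgi4 and was counted at 0 to 6 reads a library, and the antisense gene Gm42723 spans 6930 exon bases of Lgi1 and was counted at 0 to 1. The strand setting of the counting is not stated in the labels.

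All 7 genes were well expressed in the cortex, and their levels fell into a steady order. Over the 47 mice, Lgi3 averaged 37.5 ± 2.80 FPKM, Adam11 33.98 ± 1.13, Adam22 22.2 ± 0.750, Lgi2 21.4 ± 1.62, Adam23 12.7 ± 0.885, Lgi1 9.85 ± 0.308 and Lgi4 7.74 ± 0.582 FPKM (SD, n = 47). The best-known ligand, Lgi1, was thus the lowest of the 7 in FPKM but for Lgi4. Adam22 was above Lgi2 in 34 of 47 mice and Lgi3 above Adam11 in 44 of 47, so these neighbours were not separated beyond their spread, while the other 4 neighbouring pairs kept their order in 47 of 47 mice. The place of Lgi3 rests on the gene length: its FPKM was computed on 3180 bases, against 3899 bases of exon in GENCODE M21, and on the longer length it averaged 30.6 ± 2.28 FPKM and was above Adam11 in 1 of 47 mice. For the other 6 genes both lengths were equal.

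**Figure D1:**
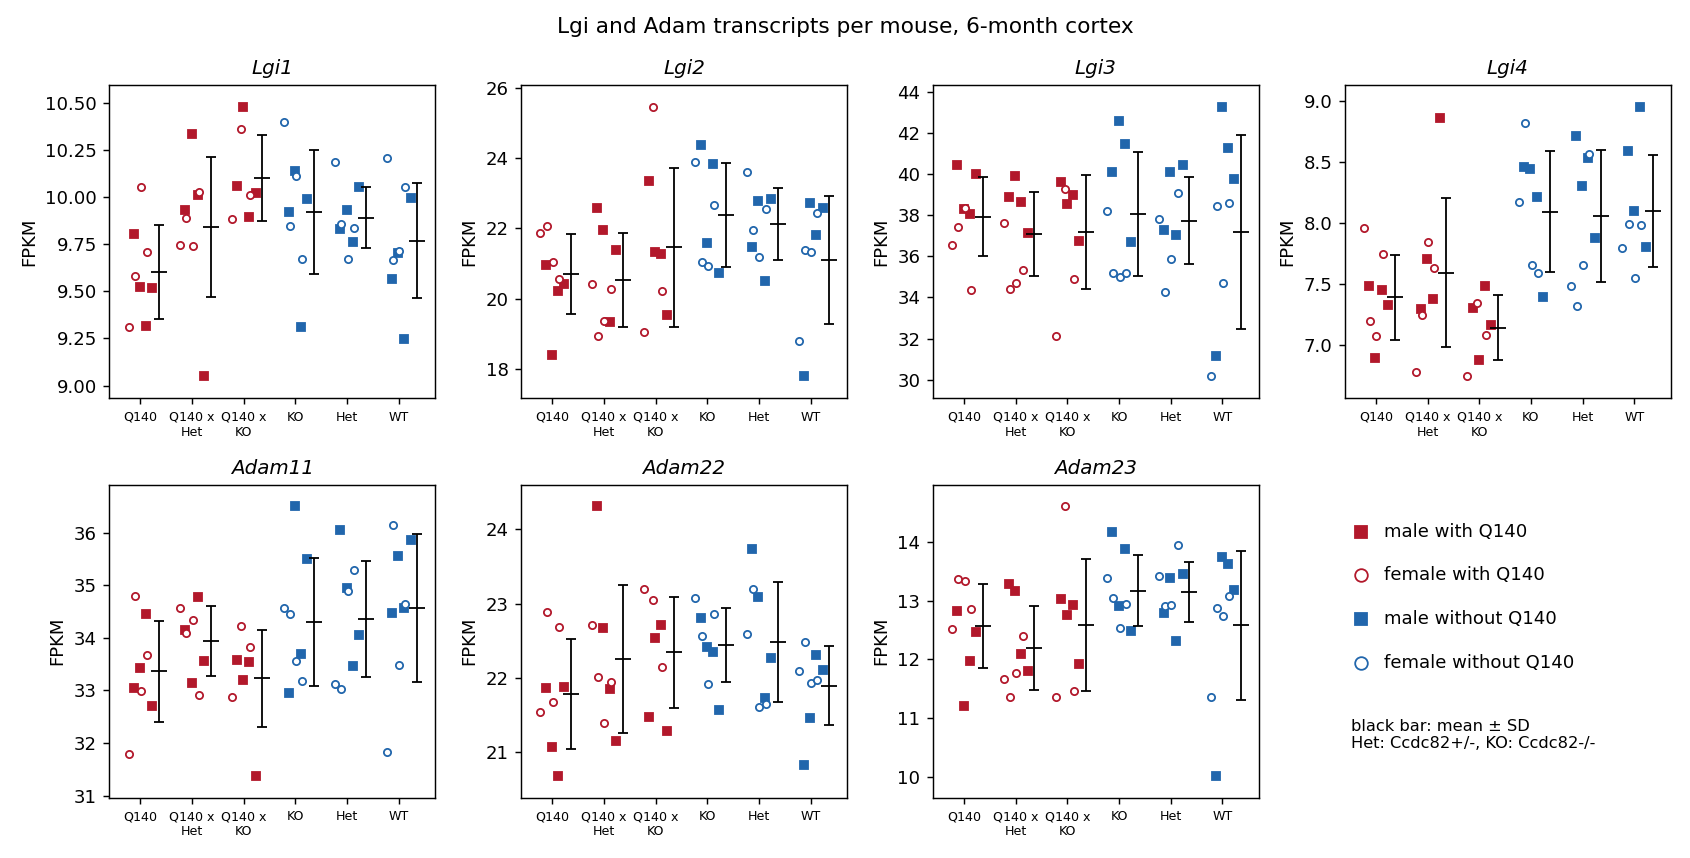
FPKM of each of the 7 genes in each of the 47 mice, by genotype (squares are males, circles females; red with Q140, blue without; black bars are the mean and SD), on axes that do not start at 0. Lgi4 sits lower in the 3 groups with Q140, and the WT group of Lgi3 and Adam23 has the widest spread.

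The ligands differed in how much they varied. After the genotype and sex means were taken out, the SD of log2 CPM (counts scaled to TMM-normalised library size, on the log2 scale) was 0.0435 for Adam11, 0.0435 for Adam22 and 0.0443 for Lgi1, and 0.0801 for Lgi4, 0.0937 for Lgi3, 0.0976 for Adam23 and 0.101 for Lgi2. The median over all 19174 genes tested was 0.117. All 7 members were below that median, and Adam11, Adam22 and Lgi1 were the steadiest.

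Lgi4 was the member with the clearest difference by Q140. It ranged from 6.89 to 7.96 FPKM with a median of 7.39 in Q140 mice, from 6.78 to 8.86 with a median of 7.50 in Q140 x Ccdc82+/- mice, and from 6.74 to 7.48 with a median of 7.17 in Q140 x Ccdc82-/- mice. It ranged from 7.39 to 8.81 FPKM with a median of 8.19 in Ccdc82-/- mice, from 7.32 to 8.71 with a median of 8.09 in Ccdc82+/- mice, and from 7.55 to 8.95 with a median of 7.99 in WT mice. Each group with Q140 thus had a lower median than its counterpart without it, and 14 of the 23 mice with Q140 lay below the lowest of the 24 mice without it on the log2 CPM scale. The groups overlapped, in part because 1 male of the Q140 x Ccdc82+/- group, at 8.86 FPKM, was the highest mouse with Q140. In the one pair of groups that did not overlap in log2 CPM, Q140 x Ccdc82-/- and Ccdc82-/-, the FPKM ranges did overlap slightly; groups did not overlap in log2 CPM for 0.0522% of genes in that comparison.

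The pooled Q140 difference, averaged over the 3 Ccdc82 genotypes, was -0.14 for Lgi4 (SE 0.0229) on the log2 scale, and mice with Q140 averaged 7.38 ± 0.458 FPKM (SD, n = 23) against 8.08 ± 0.478 FPKM without it (SD, n = 24). The difference was -0.14 on Ccdc82+/+, -0.09 on Ccdc82+/- and -0.19 on Ccdc82-/-. It was -0.16 in males and -0.12 in females. On single Ccdc82 genotypes edgeR called 0 of the 7 members, against 0.0313% of genes on Ccdc82+/+, 0.0313% on Ccdc82+/- and 0.0209% on Ccdc82-/-, and DESeq2 called 1, Lgi4 on Ccdc82-/-, and nothing is read from these counts. Of the 23 mice with Q140, 20 lay below the mean of their own genotype and sex controls. Fewer cells of a type and less RNA per cell cannot be told apart in bulk cortex.

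The other members moved less. The pooled differences were -0.07 for Lgi2 (SE 0.0285), -0.07 for Adam23 (SE 0.0274), -0.04 for Adam11 (SE 0.0131), -0.02 for Lgi3, -0.02 for Adam22 and -0.01 for Lgi1. All 7 were below 0, with a median of -0.04 beside 0.00085 over all genes tested. Lgi4 was the 1 member of 7 past the adjusted threshold, against 0.876% of genes in this contrast, and since Lgi4 was the reason for the choice nothing is read from that count. For Lgi2 and Adam23, 17 and 16 of the 23 mice with Q140 lay below their own controls, and for Adam11 20 of 23 did.

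Adam11, the receptor with the highest FPKM, had a difference by Q140 that was small but shared by most mice. On the log2 CPM scale 22 of the 23 mice with Q140 lay below the median of those without it. The pooled difference of -0.0449 was near the residual SD of Adam11, 0.0435. It ranged from 31.8 to 34.8 FPKM with a median of 33.2 in Q140 mice, against 31.8 to 36.1 FPKM with a median of 34.6 in WT mice. It ranged from 31.4 to 34.2 FPKM with a median of 33.5 in Q140 x Ccdc82-/- mice, against 32.9 to 36.5 FPKM with a median of 34.1 in Ccdc82-/- mice. It ranged from 32.9 to 34.8 FPKM with a median of 34.1 in Q140 x Ccdc82+/- mice, against 33.03 to 36.05 FPKM with a median of 34.5 in Ccdc82+/- mice. The ranges overlapped in all 3 comparisons, and the highest mice were those without Q140. The log2 differences were -0.06 on Ccdc82+/+, -0.03 on Ccdc82+/- and -0.05 on Ccdc82-/-, and -0.06 in males and -0.02 in females.

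Lgi2 and Adam23 had their lowest medians in Q140 x Ccdc82+/- mice. Lgi2 ranged from 18.9 to 22.6 FPKM with a median of 20.4 in Q140 x Ccdc82+/- mice, against 20.5 to 23.6 FPKM with a median of 22.3 in Ccdc82+/- mice, a log2 difference of -0.12 (SE 0.0488). Adam23 ranged from 11.4 to 13.3 FPKM with a median of 11.95 in Q140 x Ccdc82+/- mice, against 12.3 to 13.95 FPKM with a median of 13.2 in Ccdc82+/- mice, a log2 difference of -0.12 (SE 0.0470). The groups overlapped for both genes, with 5 of the 8 mice with Q140 below the lowest mouse without it in log2 CPM. On Ccdc82-/- the same differences were -0.07 for both, with 4 of 7 mice with Q140 below the lowest without it, and on Ccdc82+/+ they were -0.03 for Lgi2 and -0.01 for Adam23. The WT group holds male replicate 1, the lowest of all mice for both genes after genotype and sex means were taken out (-0.24 and -0.32). For each gene 6 of the 8 Q140 mice lay below the WT median in log2 CPM.

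The mix of ligands was taken as shares of their sum. Lgi4 made up 9.80 ± 0.681% of the summed FPKM of the 4 ligands in mice with Q140 (SD, n = 23) and 10.5 ± 0.792% in mice without it (SD, n = 24). Lgi3 made up 49.5 ± 1.40% in mice with Q140 and 48.5 ± 1.63% in mice without it. Among the receptors, Adam11 made up 49.3 ± 1.12% of the summed FPKM in mice with Q140 and 49.4 ± 1.24% in mice without it. The ratio of the summed ligands to the summed receptors was 1.11 ± 0.0446 in mice with Q140 and 1.11 ± 0.0479 in mice without it, so it differed by less than the spread between mice.

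**Figure D2:**
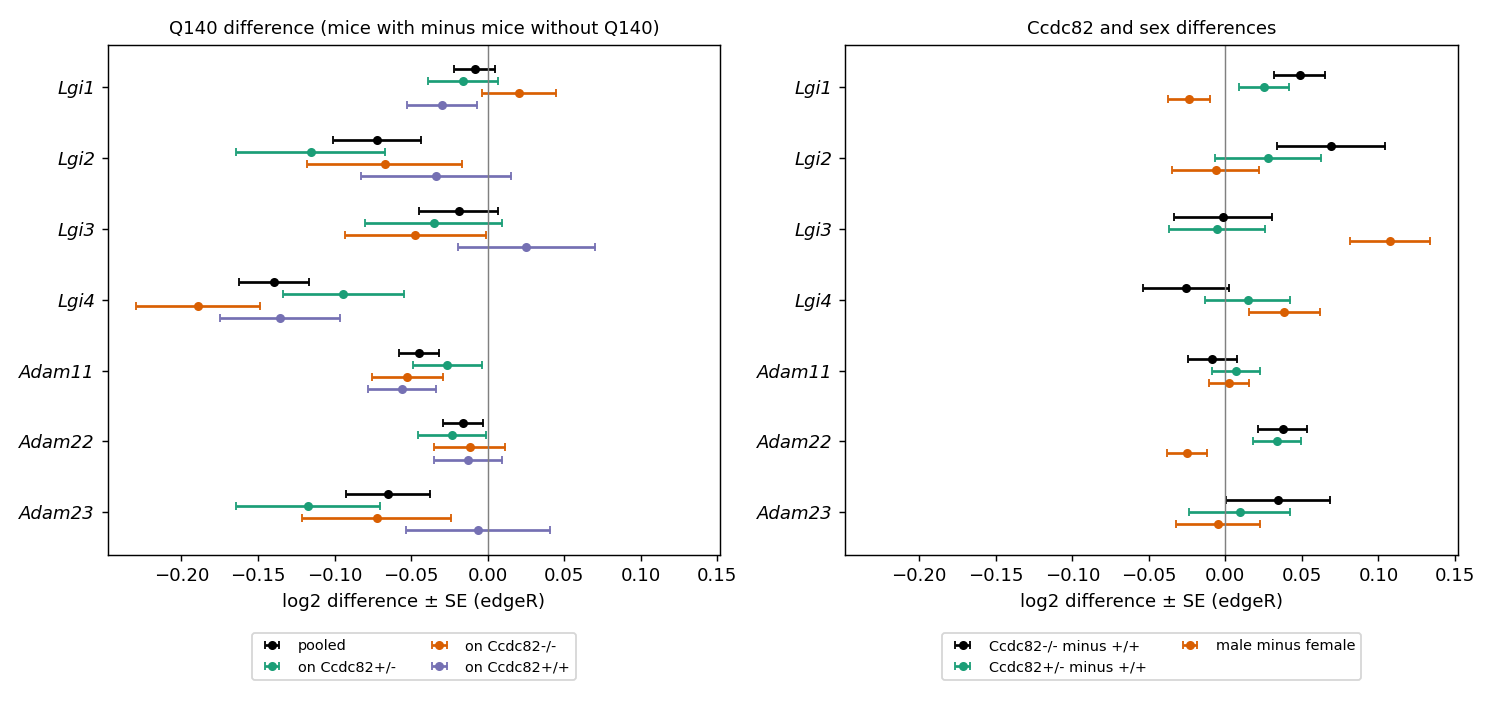
Log2 differences (edgeR) with their SE for the 7 genes: mice with Q140 against those without, pooled and on each Ccdc82 genotype (left), and Ccdc82-/- and Ccdc82+/- against Ccdc82+/+ and males against females (right). Lgi4 lies at -0.19 to -0.09 in the Q140 panel, and Lgi3 at 0.11 in the male against female comparison.

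Whether the Q140 difference depends on Ccdc82 was described by interaction. Lgi4 was chosen by its Q140 difference, so no test is read from these values. For Lgi4 the Q140 difference on Ccdc82+/- differed from that on Ccdc82+/+ by 0.04 (SE 0.0555) and that on Ccdc82-/- by -0.05 (SE 0.0566), both with an edgeR adjusted p of 0.9998. In either interaction 0 of the 7 members passed, against 0% of all genes, and DESeq2 called 0. At an unadjusted edgeR p under 0.05 stood 0 of the 7, against 3.52% of all genes on Ccdc82+/- and 2.96% on Ccdc82-/-. Nothing is read from that count. The Q140 difference of Lgi4 in males differed from that in females by -0.04 (SE 0.0463, edgeR adjusted p = 0.9998). The widest interaction was for Adam23, at -0.11 on Ccdc82+/- (SE 0.0664, edgeR adjusted p = 0.9998). A p of this size does not show that the Q140 differences were equal.

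Loss of Ccdc82 left the 7 genes without a change that passed the test. Against Ccdc82+/+, the pooled Ccdc82-/- differences were 0.07 for Lgi2 (SE 0.0351), 0.05 for Lgi1 (SE 0.0166), 0.04 for Adam22 (SE 0.0161), 0.03 for Adam23 (SE 0.0338), -0.01 for Adam11, -0.0017 for Lgi3 and -0.03 for Lgi4, with edgeR adjusted p-values of 0.9999. The pooled Ccdc82+/- differences lay between -0.01 and 0.03, with edgeR adjusted p-values of at least 0.905. In neither contrast, nor in the 4 comparisons of single genotypes, was any of the 7 genes called, against 0.00522% of all genes, which is Ccdc82 alone. DESeq2 also called 0 of 7 in each of these. At an unadjusted edgeR p under 0.05 stood 2 of the 7 in the pooled Ccdc82-/- contrast, Lgi1 and Adam22, against 4.65% of all genes, and 1, Adam22, in the pooled Ccdc82+/- contrast, against 5.31% of all genes.

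Lgi1 ranged from 9.89 to 10.5 FPKM with a median of 10.02 in Q140 x Ccdc82-/- mice and from 9.31 to 10.4 with a median of 9.96 in Ccdc82-/- mice. It ranged from 9.31 to 10.1 FPKM with a median of 9.55 in Q140 mice and from 9.25 to 10.2 with a median of 9.71 in WT mice. The medians without Ccdc82 were the higher ones, and the ranges overlapped.

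Lgi3 was higher in males, and it was the one member that passed the test between the sexes. It ranged from 31.1 to 43.3 FPKM with a median of 39.3 in 24 males, against 30.2 to 39.2 FPKM with a median of 35.4 in 23 females. The ranges overlapped, and 23 of 24 males lay above the female median on the log2 CPM scale. Males averaged 39.0 ± 2.43 FPKM (SD, n = 24) and females 35.98 ± 2.30 FPKM (SD, n = 23), a log2 difference of 0.11 (SE 0.0261, edgeR adjusted p = 0.0060).

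The direction was the same in 6 of 6 genotypes, with a male minus female difference in mean log2 CPM between 0.0635 in Ccdc82+/- mice and 0.153 in Ccdc82-/- mice. It was also the same in 6 of 6 columns of the library plate, between 0.0684 and 0.186. Between the sexes 1 of the 7 members passed the test, against 10.5% of all genes tested, so that share is close to the background. Libraries that shared the number in their library name were all of the same sex, and the main fit took them as independent. With that number as a random block in limma, 452 genes were called higher in males and 453 lower, of 19174 tested. The main fit called 2018, and Lgi3 passed in both. Lgi4, at 0.04 higher in males (SE 0.0229, edgeR adjusted p = 0.287), and Adam22, at -0.03 (SE 0.0130, edgeR adjusted p = 0.212), did not pass, and the other 4 members had edgeR adjusted p-values of at least 0.261. Markers of several cell types also passed the edgeR test between the sexes. In males 3 of 11 interneuron genes rose (Gad1 0.06, Gad2 0.05 and Adarb2 0.10) and 1 of 6 striatal genes (Ppp1r1b 0.10), while 2 of 12 oligodendrocyte genes fell (Ugt8a -0.10 and Ermn -0.11), as did 3 of 5 precursor genes, 3 of 7 endothelial and pericyte genes and 2 of 19 astrocyte genes. The summed interneuron list ranged from 1411 to 1572 CPM in males and from 1377 to 1533 CPM in females, and the summed oligodendrocyte list from 1827 to 2977 CPM in males and from 2194 to 3220 CPM in females. The part of these lists in the Lgi3 difference was not tested. The ratio of the summed FPKM of the ligands to that of the receptors was 1.13 ± 0.0398 in males (SD, n = 24) and 1.09 ± 0.0400 in females (SD, n = 23), a difference that was not tested apart from that of Lgi3. The size of the ratio rests on the length used for Lgi3.

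**Figure D3:**
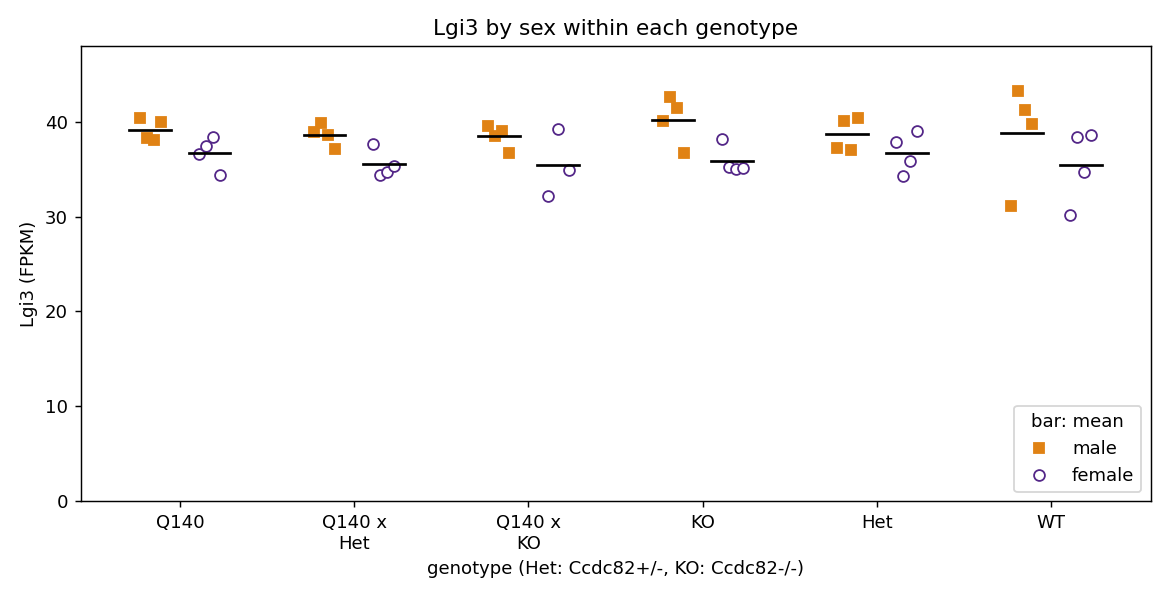
Lgi3 FPKM of each mouse by sex within each genotype (squares are males, circles females, black bars the mean of each), on an axis from 0. In all 6 genotypes the mean of the males lies above that of the females.

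Lgi2, Lgi3 and Adam23 rose and fell together from mouse to mouse. Of the 21 pairs of members, 3 had a strong correlation of the log2 CPM residuals after genotype and sex means over 47 mice, and all 3 lay within this trio. Lgi2 and Adam23 had r = 0.883 and rho = 0.841, Lgi3 and Adam23 r = 0.792 and rho = 0.730, and Lgi2 and Lgi3 r = 0.729 and rho = 0.688. Each of the 6 coefficients had a permutation p of 1e-05, two-sided and the smallest that 100000 permutations can give, and 7e-05 after Benjamini-Hochberg adjustment over the 21 pairs.

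The mouse with the lowest residuals of all 3 genes was the same one, WT male replicate 1, at -0.24 for Lgi2, -0.30 for Lgi3 and -0.32 for Adam23. The female replicate 2 of Q140 x Ccdc82-/- was highest for Lgi2 and Adam23, at 0.25 and 0.21. Without the 2 mice farthest from the median of the first gene of each pair, r was 0.843 for Lgi2 and Adam23, 0.698 for Lgi3 and Adam23 and 0.642 for Lgi2 and Lgi3. Lgi2 and Adam23 had r = 0.863 in mice with Q140 and 0.904 in mice without it, and 0.899 in males and 0.867 in females. Within the 6 plate columns r for this pair lay between 0.749 and 0.963, and for Lgi3 and Adam23 between 0.293 and 0.955.

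**Figure D4:**
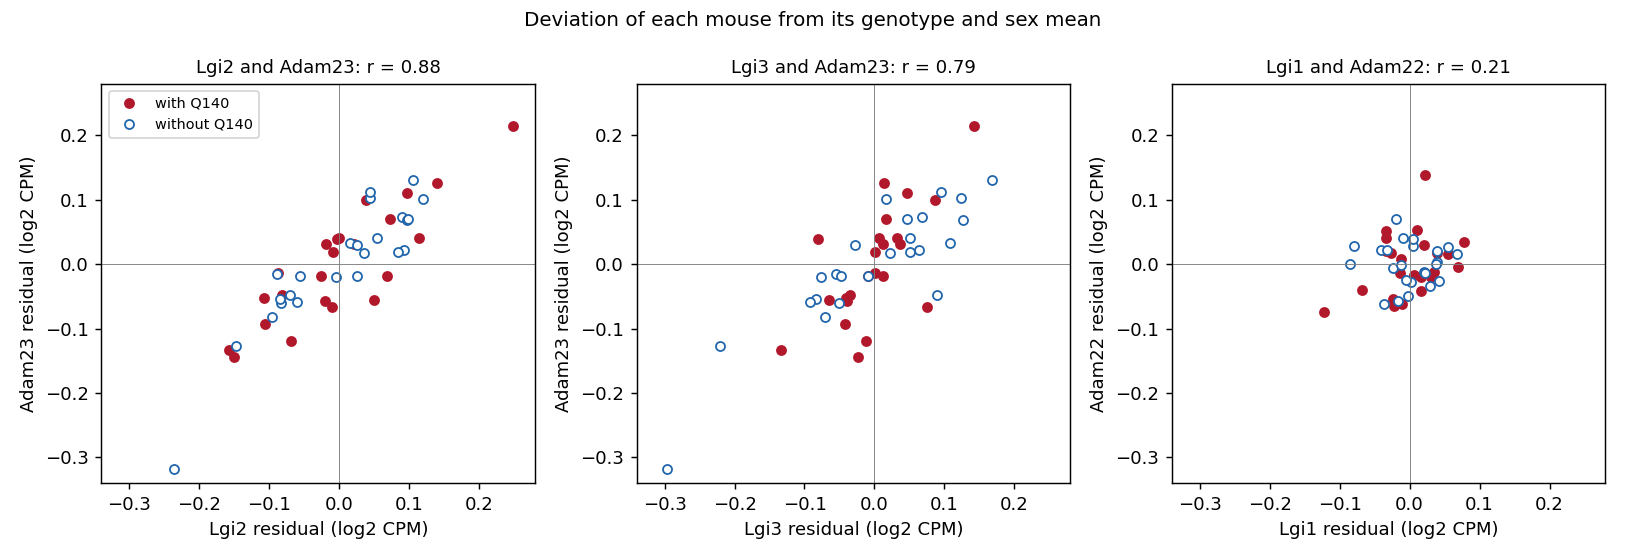
Residual log2 CPM of each of 47 mice after its genotype and sex mean was taken out, for Lgi2 against Adam23, Lgi3 against Adam23 and Lgi1 against Adam22 (filled red with Q140, open blue without). The panels of Lgi2 and Lgi3 against Adam23 show a rising cloud with WT male replicate 1 at its low end, and that of Lgi1 against Adam22, with r = 0.210, does not.

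The remaining pairs were weaker. Adam22 and Adam23 had r = 0.360 (permutation adjusted p = 0.0607), with 0.522 in males and 0.0842 in females. Lgi1 and Lgi4 had r = -0.394 (permutation adjusted p = 0.0312) but rho = -0.287 (permutation adjusted p = 0.183), and the relation was -0.705 in males and -0.0184 in females, so it did not hold in both sexes. Lgi1 and Adam22, the pair best known to bind each other, had r = 0.210 (permutation adjusted p = 0.361).

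By the same measure, the genes most like the members were found among all genes tested. Ppm1l was first for both Lgi2 (r = 0.908) and Adam23 (r = 0.890), and Kcnj3, Mfsd4a and Ttll7 were also among the first 5 for both. Lgi3 was led by Mgst3 (r = 0.841), Lgi1 by Frrs1l (r = 0.765), which encodes an AMPA receptor assembly protein, Adam11 by Abcg4 (r = 0.767) and Lgi4 by Nnat (r = 0.703). Pdgfra, a gene of oligodendrocyte precursors, was also among the first 5 for Lgi4 (r = 0.674). These are descriptions over 47 libraries that share one normalisation, and the residual of Lgi2 had r = 0.427 with the log2 TMM factor of the library.

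Gene lists of other cell types moved with some members. Lgi4 had r = 0.507 with the astrocyte list of 19 genes 0.526 with the precursor list of 5, 0.511 with the dentate gyrus list of 5, 0.488 with the microglia list of 8, 0.367 with the choroid plexus list and -0.338 with the excitatory neuron list of 11. Lgi2, Lgi3 and Adam23 had r = 0.570, 0.587 and 0.529 with the oligodendrocyte list of 12. Values of like size, some of the other sign, were found for other members. Lgi1 had r = 0.453 with the excitatory neuron list and -0.438 with the precursor list. It had -0.433 with the meningeal fibroblast list and -0.389 with the astrocyte list. For Adam22, r was -0.428 with the astrocyte list and -0.422 with the interneuron list. In the pooled Q140 contrast, where 0.876% of all genes were called, 4 of 19 astrocyte genes fell, which were Slc1a2 (-0.08) and the glutamate and potassium handling genes Glul (-0.11) and Kcnj10 (-0.14), with Aldoc (-0.10), and the list's median was -0.04. Its summed level ranged from 7910 to 9020 CPM in mice with Q140 and from 8145 to 9498 CPM in mice without. Also called lower were Camk2a (-0.08) and Nrgn (-0.09) of 11 excitatory neuron genes, Lamp5 (-0.11) of 11 interneuron genes and Ugt8a (-0.13) of 12 oligodendrocyte genes. The summed excitatory neuron list ranged from 7073 to 7927 CPM in mice with Q140 and from 7434 to 8308 CPM in mice without. The part of these lists in the Lgi4 difference was not tested.

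The other genes of the pathway were counted from lists of synaptic scaffold and AMPA receptor partners (11 genes), the axonal Kv1 complex (8), Nogo receptor partners (2), 14-3-3 proteins (7), other EPTP repeat proteins (2) and other Adam genes (14). Of the 39 that were tested, 0 passed in the pooled Q140 contrast or the pooled Ccdc82 contrasts, by edgeR or by DESeq2. At an unadjusted edgeR p under 0.05 stood 6 of them with Q140, 0 with Ccdc82-/- and 5 with Ccdc82+/-, against 9.18%, 4.65% and 5.31% of all genes. Between the sexes, where 10.5% of all genes were called, 4 of 11 scaffold and AMPA receptor genes fell in males, namely Dlg4 (-0.07), the PSD-95 gene that binds Adam22, with Dlg2 (-0.04), Gria4 (-0.04) and Cacng3 (-0.08). In the other lists Kcna6 (-0.11), Rtn4r (-0.09), Ywhab (-0.03), Adam19 (-0.20) and Adam10 (-0.05) also fell in males. By level, Dlg4 averaged 157.8 FPKM, above every Lgi and Adam member described here, and Kcnab2, which encodes an auxiliary Kv1 subunit, averaged 103.9 FPKM.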

How the data were processed

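Cortical RNA of 47 mice was sequenced. Reads were processed with tools that include STAR 2.7.5c, SAMtools 1.10 and HTSeq 0.12.3, per the submitters' processing notes, which do not give an annotation release. The deposited count table holds raw reads per gene, not normalized. The deposited FPKM table is scaled by the authors to gene length and library total, and the length behind it was the same in every library. The members and gene lists were chosen with earlier results of these data known. Genes named outside the members were the 5 with the highest Pearson r of residual log2 CPM for each member, list genes called in a contrast, and the most abundant genes of each list; some of these are not reported here. Counts were normalized by TMM after filterByExpr (minimum count 10, minimum total 15), which kept 19174 genes including all 7 members, and fitted in edgeR 4.0.16 (robust quasi-likelihood) with 6 genotype means and sex, all libraries in 1 fit, with Benjamini-Hochberg adjustment and a threshold of 0.05. The Q140 by sex contrast used genotype-by-sex means. The SE is that implied by the F statistic, and log2 CPM used a prior count of 2. The fit was tested on simulated data. Alternatives were DESeq2 1.42.0, limma 3.58.1 on log2(FPKM + 0.1) and log2(FPKM + 1), other scalings and filters, plate position, blocks, and leaving out each library. Two-sided correlation tests used 100000 permutations. The p-values measure the spread between these libraries.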

Additional observations from a re-analysis of the deposited data

Results flagged for a closer look

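The member levels were examined within each of the 42 combinations of gene and genotype for a library that stands apart, and 1 was found, where chance flags about 1 in 20 groups. Lgi1 was at 9.05 FPKM in male replicate 4 of Q140 x Ccdc82+/-, with the next lowest of the 8 libraries at 9.74 FPKM. The same mouse had the highest residual of Lgi4, 0.19, and the lowest of Adam22, -0.07, on the log2 CPM scale.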

How the results depend on the processing

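The Lgi4 difference with Q140 lay between -0.15 and -0.12 over the other settings and between -0.15 and -0.13 when 1 library was left out. Lgi3 in males against females lay between 0.10 and 0.12 over the other settings, with adjusted p from 0.000875 to 0.0233, and between 0.0973 and 0.121 with 1 library left out. The number of members called with Q140 was 1 to 2 when 1 library was left out, and Adam11 joined without WT female replicate 1. With DESeq2, 1 member was called in the Q140 comparisons on single Ccdc82 genotypes, Lgi4 on Ccdc82-/-. Of pathway genes, 0 to 1 were called with Q140 when 1 library was left out. Of 35 genes most like a member, 19 were also among the first 5 by Spearman's rho.

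Values near 0 changed sign. Lgi3 with Ccdc82-/- was 0.000628 and 0.000553 on log2(FPKM + 0.1) and log2(FPKM + 1), 0.0024 with no sex term, 0.0077 with plate column, 0.0070 with the library-name block, and -0.022 to 0.011 leaving out 1 library. With Ccdc82+/-, Lgi3 was 0.013 with plate column and -0.025 to 0.0070 leaving out 1 library, Lgi4 -0.00039 to 0.025, Adam11 -0.00022 to 0.011 and Adam23 -0.012 to 0.019. In males against females Lgi2 was 0.0035 on library totals, 0.0035 and 0.0034 on the FPKM scales, 0.0043 with plate column, 0.0093 with plate row, and -0.015 to 0.0096 leaving out 1 library. Adam11 was -0.0034 with plate row and -0.0023 to 0.0058 leaving out 1 library. Adam23 was 0.00503 on library totals, 0.0041 and 0.0039 on the FPKM scales, 0.014 with plate column, 0.0033 with plate row, and -0.013 to 0.0092 leaving out 1 library. The cause was not tested.

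Libraries with the same replicate number within sex did not deviate together on average (mean r -0.0195 over 115 pairs, from -0.169 to 0.211). For libraries that shared the number in their library name, the mean r was 0.0150 over 38 pairs. Means of this size do not show that no mice were paired. With the replicate block Lgi3 with Ccdc82-/- was 0.00089.

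FPKM levels between genes rest on the length used, and each group held 7 or 8 libraries.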
